A study of Drosophila melanogaster with 2 samples.

Results

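The peaks described here were strong in replicate 4 of a chromatin immunoprecipitation and sequencing (ChIP-seq) experiment on the Drosophila melanogaster zinc finger protein Sry-beta, and had no equally strong summit at the same place in replicate 2. They were chosen by their measured signal: the 3257 rows of highest signal were taken from the authors' relaxed peak list of each replicate, 3257 being the length of the list they kept after filtering on the irreproducible discovery rate (IDR) between replicates. A peak of replicate 4 was a member when no summit of the replicate 2 rows lay within 100 bp of its own. Of the 3257 strong peaks of replicate 4, 1355 were members (41.6%) and 1902 (58.4%) were shared. The same rule left 1355 peaks of replicate 2 without a strong partner in replicate 4. These 3 groups are called replicate 4 only, shared and replicate 2 only.

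Both libraries came from whole embryos of mixed sex, 0 to 12 h old, of 1 transgenic line that stably expresses Sry-beta with GFP at its C-terminus, and they are biological replicates 2 and 4 of a single group. No untagged or otherwise treated embryos were compared. Chromatin was sonicated to 200 to 800 bp, and the labels give Sry-β as the antibody target. The free text of the labels calls the libraries input controls, whereas the assay title and the deposited peak lists belong to ChIP. Both relaxed lists were made against the same control alignment. No read counts come with the peaks, and the depth of the libraries is therefore unknown. With 1 library on each side of the rule, nothing below is tested between conditions, and each 95% interval covers the number of peaks only.

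Sry-beta belongs to a family of C2H2 zinc finger proteins and is encoded in the serendipity cluster beside the related zinc finger gene Sry-delta and the unrelated gene Sry-alpha. In ChIP-seq, DNA fragments bound by the protein pile up around a contact, and a peak caller places the summit at the highest point of the pile. Promoters of broadly active fly genes are often recognised by short elements such as the DRE, the site of DREF, and Motif 1, the site of M1BP. AT-rich stretches are common just upstream of fly transcription start sites (TSSs).

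The 6 highest-ranking replicate 4 only peaks whose sequence can be printed here are shown first, because in each of them a strong summit of replicate 2 lay nearby and the run shows the DNA from one summit to the other. Each run is the plus strand of the release 6 genome (RefSeq; the dm6 coordinates of the files), 5′ to 3′, from 25 bases before the first summit to 25 bases after the last. Capitals mark matches to the searched motifs, leaving out the TATA box TATAAA, the homeodomain core TAATTA and runs of 8 A, which are common in such DNA. The runs cover chr3R:4479479-4479643 upstream of CG31523, chr3R:9033827-9033979 upstream of neur, chrX:2262640-2262795 upstream of temp, chr2L:11808534-11808831 within crol, chr3R:21134034-21134205 upstream of Trm7-34 and chr3R:28811346-28811588 upstream of wdn.
CG31523: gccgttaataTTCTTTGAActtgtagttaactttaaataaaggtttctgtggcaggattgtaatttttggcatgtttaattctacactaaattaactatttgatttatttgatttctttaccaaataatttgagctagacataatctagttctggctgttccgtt
neur: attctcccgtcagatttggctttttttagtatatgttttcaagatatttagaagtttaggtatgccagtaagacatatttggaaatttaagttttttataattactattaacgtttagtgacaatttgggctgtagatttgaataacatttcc
temp: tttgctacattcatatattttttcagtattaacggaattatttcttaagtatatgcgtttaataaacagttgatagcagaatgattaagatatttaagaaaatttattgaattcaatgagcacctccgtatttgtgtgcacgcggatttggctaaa
crol: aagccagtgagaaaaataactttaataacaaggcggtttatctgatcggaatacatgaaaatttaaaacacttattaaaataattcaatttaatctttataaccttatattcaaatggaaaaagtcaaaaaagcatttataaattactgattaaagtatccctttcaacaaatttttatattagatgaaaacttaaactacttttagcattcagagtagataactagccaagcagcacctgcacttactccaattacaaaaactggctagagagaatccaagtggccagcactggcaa
Trm7-34: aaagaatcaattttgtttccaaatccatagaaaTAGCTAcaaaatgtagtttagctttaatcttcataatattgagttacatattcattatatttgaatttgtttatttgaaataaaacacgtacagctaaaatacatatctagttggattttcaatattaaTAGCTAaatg
wdn: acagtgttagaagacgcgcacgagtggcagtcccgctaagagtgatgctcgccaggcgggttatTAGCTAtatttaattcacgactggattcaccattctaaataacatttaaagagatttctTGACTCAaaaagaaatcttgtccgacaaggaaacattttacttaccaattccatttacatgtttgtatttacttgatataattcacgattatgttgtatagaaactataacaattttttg

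Counted from the first base of each run, the replicate 4 summit was base 128 at neur, base 218 at wdn and base 26 at the other 4. The replicate 2 summit was base 140 at CG31523, base 131 at temp, base 273 at crol, base 147 at Trm7-34 and base 26 at neur and wdn. In 4 of the 6 runs the 101 bases around the replicate 4 summit were poorer in GC than those around the replicate 2 summit. At the replicate 4 summit the GC content was 21.8% at neur, 25.7% at temp, 26.7% at crol and 25.7% at wdn. At the replicate 2 summit it was 36.6% at neur, 34.7% at temp, 53.5% at crol and 49.5% at wdn. It was equal at Trm7-34, with 23.8% at both summits. CG31523 went the other way, with 35.6% at the replicate 4 summit and 29.7% at the replicate 2 summit.

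The name replicate 4 only refers to the strong lists. Nearly all of these peaks had a replicate 2 summit of some rank within 500 bp. The full replicate 2 list, however, holds background rows as well as peaks by the authors' naming. How often its summits lie within 500 bp of other places in the genome was not measured. Of the 1355 peaks, 593 (43.8%, 95% Wilson interval 41.1 to 46.4) had a summit of the strong replicate 2 list at 101 to 500 bp. A further 484 (35.7%) had a weaker summit of the full replicate 2 list within 100 bp, and 264 (19.5%) had one at 101 to 500 bp. Only 14 peaks (1.03%, interval 0.617 to 1.73) had no replicate 2 summit of any rank within 500 bp. The replicate 2 only peaks were made up differently: 308 of them (22.7%) had a strong replicate 4 summit at 101 to 500 bp, 953 (70.3%) a weaker one within 500 bp and 94 (6.94%) none. An IDR summit lay within 100 bp of 786 replicate 4 only peaks (58.0%), and the interval of 1103 (81.4%) overlapped an IDR peak. The IDR list was made from the same libraries, so this overlap is not independent of how the peaks were chosen.

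The share of replicate 4 only peaks grew as signal fell. Signal rank is part of the rule, which cuts both lists at 3257 rows. The shares by rank and the signals given here are therefore not independent of how the peaks were chosen. Replicate 4 only peaks made up 3 of the 100 highest replicate 4 peaks (3%) and 51 of the 400 peaks at ranks 101 to 500 (12.8%). The share was 27.6% at ranks 501 to 1000, 31.8% at ranks 1001 to 1500 and 46.2% at ranks 1501 to 2000. It reached 57.4% at ranks 2001 to 2500 and 64.2% (486 of 757, interval 60.7 to 67.5) at ranks 2501 to 3257. The kind of peak changed with it, because all 124 replicate 4 only peaks ranked above 792 had a strong replicate 2 summit within 500 bp. Peaks with only a weaker replicate 2 summit, or none, were 1.60% of ranks 501 to 1000 and 48.4% of the last range. The median signal, on the authors' scale, was 153 over the replicate 4 only peaks (quartiles 126 and 216) and 262 over the shared peaks (163 and 704).

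**Figure D1:**
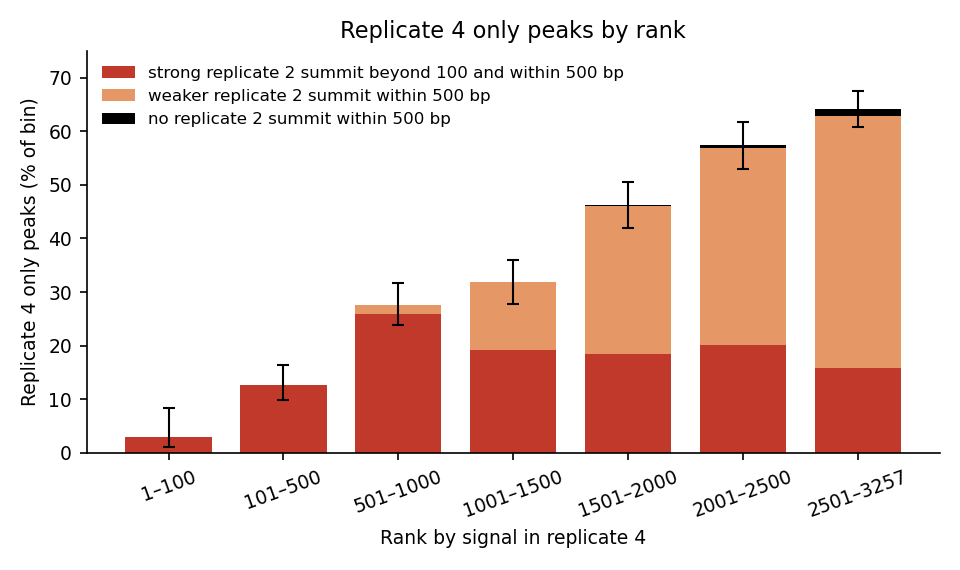
Replicate 4 only peaks as a percentage of all replicate 4 peaks in each range of signal rank, stacked by the nearest replicate 2 summit, with 95% Wilson intervals of the total. The total climbs from 3% of the first 100 ranks to 64.2% of the last range, while the part with a strong replicate 2 summit at 101 to 500 bp is largest at ranks 501 to 1000, where it is 26.0%. The rule that chose the peaks itself uses signal rank.

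Peaks next to the limits show how fine the rule was. The lowest replicate 4 only peaks lay near Dfd, with a signal of 110.87, and at D19A, with 110.86, and the first rows below the list were at Pka-C1 (110.80) and Coq3 (110.68). Among the replicate 4 only peaks, those near pdgy, CG4829, shn and bip1 had their nearest strong replicate 2 summit at exactly 101 bp. Shared peaks near Axn, CG6628, chif and Acsl had it at exactly 100 bp. In all, 44 replicate 4 only peaks had a strong replicate 2 summit at 101 to 110 bp, and 55 shared peaks had theirs at 91 to 100 bp.

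The counts of replicate 4 only summits by distance to a strong replicate 2 neighbour were high just beyond the 100 bp limit and again around 200 bp. The limit itself sets the start of the first, since nearer summits count as shared. There were 44 peaks at 101 to 110 bp and 50 at 111 to 120 bp, and the count per 10 bp was 18 at 151 to 160 bp. It was higher again around 200 bp, with 44 peaks at 201 to 210 bp and 55 at 211 to 220 bp. Of the 593 neighbours, 473 (79.8%) were at 101 to 250 bp. The distance had a median of 202 bp over these 593. In 574 of the 593 cases (96.8%) the replicate 4 interval overlapped a strong replicate 2 peak.

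**Figure D2:**
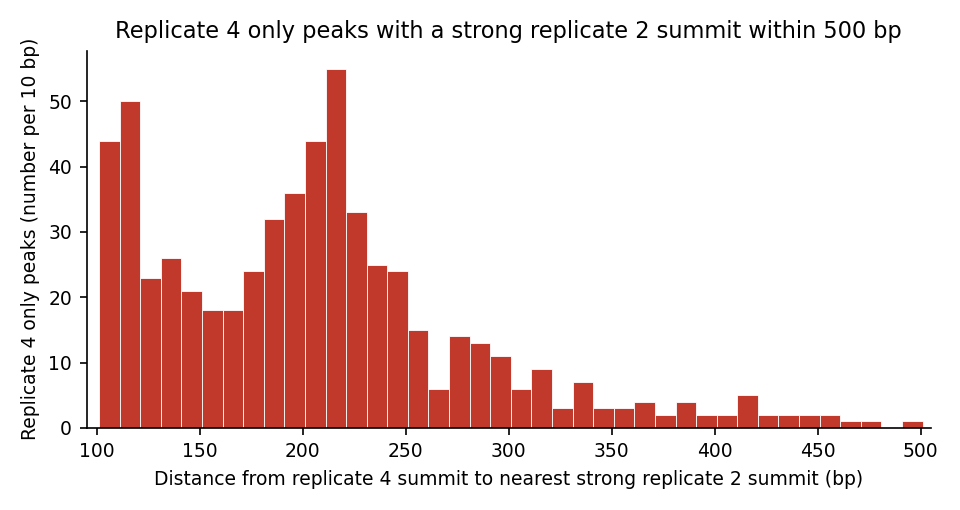
Number of replicate 4 only peaks per 10 bp of distance from their summit to the nearest summit of the strong replicate 2 list, for the 593 peaks with such a summit within 500 bp. Counts are high just beyond the 100 bp limit that defines these peaks (44 and 50 in the first bins) and again around 200 bp (55 at 211 to 220 bp).

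The 593 neighbours were of 2 kinds. In 371 (62.6%) the nearby replicate 2 summit had its own strong replicate 4 partner within 100 bp. The replicate 4 only peak was then an additional summit among the strong ones. In the other 222 (37.4%) the replicate 2 summit had no such partner, so that the strong summits of the 2 libraries stood at different points. Both kinds rest on the strong lists alone, and some of the 593 also had a weaker replicate 2 summit closer by. The distance to the nearest replicate 2 summit of any rank was 0 bp at the lowest, with a first quartile of 104 bp. The GC content was lower at the replicate 4 summit than at the replicate 2 summit in 165 of these 222 pairs (74.3%, interval 68.2 to 79.6), and in 187 of the 371 pairs with an additional summit (50.4%, interval 45.3 to 55.5).

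Additional summits were 48 of the 164 neighbours at 101 to 150 bp (29.3%) and 167 of the 181 at 201 to 250 bp (92.3%). They lay mostly on 1 side in genome coordinates. The replicate 4 summit was at the higher coordinate of the plus strand in 307 of the 371 pairs (82.7%, interval 78.6 to 86.2), and in 160 of the 181 neighbours at 201 to 250 bp (88.4%). This held for promoters of genes on both strands: the higher coordinate was that of replicate 4 in 144 of 158 additional summits at plus-strand genes (91.1%) and in 63 of 80 at minus-strand genes (78.8%). In the shared peaks the replicate 4 summit was at the higher coordinate in 51.4%.

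Spacing within a list had the same side. Of the replicate 4 only peaks, 397 (29.3%) had a stronger summit of the same list within 250 bp, and in 391 of these (98.5%) that summit was at the lower coordinate. The shared peaks had such a summit in 147 cases (7.73%), in all 147 at the lower coordinate, and the replicate 2 only peaks in 59 (4.35%), in 56 of them at the lower coordinate. No 2 strong summits of either replicate were closer than 199 bp. An additional summit therefore stood at least that far from the strong replicate 4 partner of its neighbour. The part of peak calling in this asymmetry was not tested, and the 958 replicate 4 only peaks without a stronger close summit are given beside the promoter shares, the GC content and the main motif shares below.

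The 20 highest replicate 4 only peaks were mostly summits placed upstream of a TSS. A promoter summit is one within 500 bp of the TSS of a protein-coding gene, and 17 of the 20 were promoter summits, 15 of them upstream. The neighbouring replicate 2 summit was itself a replicate 2 only peak in 15 of the 20 cases and was at 101 to 150 bp in 12. All 20 intervals overlapped an IDR peak. Signals of the 2 libraries are on separate scales, so their ranks are compared.

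The highest was the peak 297 bp upstream of CG31523, with a replicate 4 signal of 7655 (rank 5), and its replicate 2 neighbour 114 bp away had a signal of 1448 (rank 102). Next came the peak 223 bp upstream of neur, which encodes a ubiquitin ligase that activates Notch ligands, with a replicate 4 signal of 7286 (rank 7) and a replicate 2 neighbour of 1539 (rank 87) at 102 bp. The peak 150 bp upstream of temp, which also acts in Notch signalling, had 5065 (rank 35) in replicate 4, and its neighbour at 105 bp had 1427 (rank 105) in replicate 2. All 3 places thus ranked high in both libraries, and the summits differed by little more than the 100 bp limit.

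In crol, a zinc finger gene of the ecdysone response, the summit lay 413 bp downstream of the TSS with a signal of 3359 (rank 113), and the replicate 2 neighbour of rank 178 was 247 bp away. The peak 178 bp upstream of Trm7-34, a tRNA methyltransferase gene, had 3250 (rank 124) in replicate 4, and its replicate 2 neighbour ranked 310. It was an additional summit, since that neighbour had its own strong replicate 4 partner. Between wdn, a zinc finger gene, and Prp39, a gene of the splicing machinery, 2 replicate 4 only summits stood 226 bp upstream of wdn (rank 135) and 318 bp upstream of Prp39 (rank 165). Replicate 2 had strong summits there too, of rank 173 (signal 1084) 192 bp from the wdn one and of rank 471 (signal 386.3) 217 bp from the Prp39 one. It also had a weak summit 9 bp from the wdn one, with a signal of 58.6 and rank 4320.

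The peak 106 bp downstream of the TSS of CG17597 (rank 153) had the highest-ranking neighbour of the 20, a replicate 2 summit of rank 11 at 216 bp. A weaker replicate 2 summit of rank 3579 lay 17 bp from this peak. The promoter window also holds ScpX, a sterol carrier protein gene. Outside promoters, the highest peak (rank 170) lay in an intron, 1078 bp from a TSS that Bx, an LMO transcription cofactor gene, shares with HisRS, the histidyl-tRNA synthetase gene. It was followed by intronic peaks 531 bp upstream of a TSS of rdx (rank 225), an adaptor of a ubiquitin ligase, and 577 bp upstream of a TSS of sesB (rank 271), the mitochondrial ADP/ATP carrier. The remaining promoter summits of the 20 were at nito, CG4645, bou, Pisd, RpS28b, CG7139, KLHL18, sol and SF1, at replicate 4 ranks 209 to 293. CG17597, Prp39, Bx, RpS28b and CG7139 were the 5 of the 20 with a stronger replicate 4 summit within 250 bp.

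The strongest peaks without a strong replicate 2 neighbour began at rank 792. The windows of the 3 highest are printed here, because replicate 2 had only a weaker summit within 500 bp of each. Each is the 101 bases centred on the replicate 4 summit, with the same source, strand and capitals as above and the summit at base 51. They are chrX:7307164-7307264 upstream of brk, chr3R:6419608-6419708 in an intron of gpp and chrX:19160706-19160806 in an intron of RhoGAP18B.
brk: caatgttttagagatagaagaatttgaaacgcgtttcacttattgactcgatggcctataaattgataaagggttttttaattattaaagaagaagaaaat
gpp: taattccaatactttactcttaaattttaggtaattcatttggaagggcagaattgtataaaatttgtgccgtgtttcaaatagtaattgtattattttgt
RhoGAP18B: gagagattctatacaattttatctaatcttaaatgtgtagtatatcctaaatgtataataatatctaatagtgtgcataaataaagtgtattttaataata

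None of these 3 windows holds a searched motif outside the left-out ones, and their GC content was 27.7%, 25.7% and 19.8%. The peak 725 bp upstream of brk, which encodes a repressor of Dpp targets, lies in an intron of CG1677 and had a signal of 411.8 in replicate 4. The replicate 2 summit nearest to it, at 86 bp, had a signal of 17.4 and rank 28771 of 30000. The peak in gpp, the gene of the histone methyltransferase Grappa, had 401.6 (rank 806) in replicate 4, and a replicate 2 summit 17 bp away had 61.0 (rank 4082). The peak in RhoGAP18B had 400.5 (rank 809), with a replicate 2 summit of rank 3677 at 103 bp. Replicate 2 thus had its summit just below the strong list in gpp and RhoGAP18B, and near the end of the full list at brk.

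The next in rank had their replicate 2 summits at varied ranks below the strong list. The peak 709 bp upstream of spdo, a regulator of Notch traffic, ranked 942 in replicate 4 and had a replicate 2 summit of rank 11953 at 9 bp. Sobp, dgt4, nrv1, Elp6, cu, ncd, PIG-G and kibra had such peaks at replicate 4 ranks 829 to 1055 and replicate 2 ranks 3308 to 9217. Of all 748 peaks with only a weaker replicate 2 summit within 500 bp, 457 (61.1%, interval 57.6 to 64.5) had that summit at replicate 2 ranks 3258 to 6514. A further 145 (19.4%) were at ranks 6515 to 10000, 121 (16.2%) at ranks 10001 to 20000 and 25 (3.34%) beyond.

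The 14 peaks with no replicate 2 summit within 500 bp were all low in the strong list. The highest was at DUBAI, which encodes a deubiquitinating enzyme, with a signal of 178.5 (rank 1813), and the next at Liprin-beta (161.5, rank 2037) and me31B (141.9, rank 2387), an RNA helicase gene. The others were near Tm1, Reg-2, CG44812, Dip-B, CG15629, Ank, C901, RhoGEF64C, Dad, CG32425 and bdg. Of the 14, 7 were promoter summits. None had an IDR summit within 100 bp, while 11 had a summit of the pooled relaxed list within 100 bp.

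Promoter summits were 787 of the 1355 replicate 4 only peaks (58.1%, interval 55.4 to 60.7), 1222 of the 1902 shared peaks (64.2%) and 791 of the 1355 replicate 2 only peaks (58.4%). The difference between replicate 4 only and shared peaks was −6.17 percentage points (Newcombe 95% interval −9.56 to −2.77). It followed rank. At ranks 1 to 1000, 62.0% of replicate 4 only and 74.8% of shared peaks were promoter summits, at ranks 1001 to 2000 the order was opposite with 63.6% of replicate 4 only and 58.4% of shared peaks, and below rank 2000 they were 54.3% of replicate 4 only and 54.1% of shared peaks. Without the summits beside a stronger one of the same list, 54.3% of 958 replicate 4 only and 64.4% of 1755 shared peaks were promoter summits. Introns held 25.3% of replicate 4 only, 22.7% of shared and 25.5% of replicate 2 only summits. Intergenic DNA held 13.1% of replicate 4 only, 9.99% of shared and 12.0% of replicate 2 only summits. Coding exons held 5 replicate 4 only summits.

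At promoters, replicate 4 only summits were spread wider around the TSS than those of the other groups. The rule keeps them over 100 bp from every strong replicate 2 summit, and its part in this spread was not tested. Strong replicate 2 promoter summits had quartiles of −125 and −18 bp from the TSS. The quartiles were −254 and 55.25 bp in the 376 replicate 4 only promoter summits with a strong replicate 2 neighbour. They were −221.5 and −47 bp in the other 411, and −155 and −28 bp in shared promoter summits. Of the 787, 254 (32.3%, interval 29.1 to 35.6) lay within 100 bp of the TSS, against 49.0% of shared and 73.2% of replicate 2 only promoter summits. Summits over 100 bp upstream were 55.8% of replicate 4 only, 46.4% of shared and 22.1% of replicate 2 only promoter summits. Summits over 100 bp downstream were 11.9% of replicate 4 only, 4.58% of shared and 4.68% of replicate 2 only promoter summits. Without the peaks beside a stronger summit, 8.27% of 520 replicate 4 only and 4.69% of 1130 shared promoter summits were over 100 bp downstream. The median position was −121 bp in replicate 4 only, −91.5 bp in shared and −41.0 bp in replicate 2 only promoter summits. Head-to-head promoters, whose TSSs are within 1000 bp, held 53.9% of replicate 4 only, 52.2% of shared and 40.6% of replicate 2 only promoter summits.

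**Figure D3:**
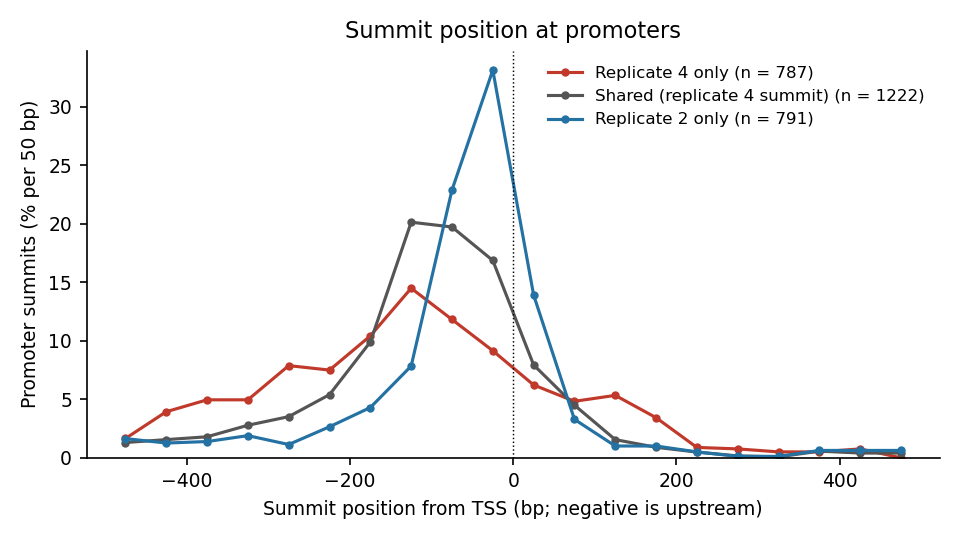
Position of promoter summits from the nearest protein-coding TSS, as a percentage of each group's promoter summits per 50 bp, for 787 replicate 4 only, 1222 shared and 791 replicate 2 only summits. The replicate 2 only summits peak in the bin just upstream of the TSS (33.1%), and the replicate 4 only summits are spread over the 500 bp upstream, with at most 14.5% in a bin.

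The 1355 peaks had AT-rich summits, unlike the replicate 2 only peaks. The median GC content of the 101 bases at the summit was 32.7% in replicate 4 only (quartiles 26.7 and 40.6), 34.7% in shared and 42.6% in replicate 2 only peaks. The low value was not particular to these peaks. Over all 3257 strong peaks the median was 33.7% in replicate 4 and 39.6% in replicate 2. At the shared peaks it was 36.6% when taken at the replicate 2 summit. In windows centred 500 bp away it was 45.1% around replicate 4 only, 45.1% around shared and 43.6% around replicate 2 only summits. Promoter and other summits were alike in this, with medians of 32.7% in replicate 4 only, 33.7% in shared and 44.6% in replicate 2 only promoter summits. At ranks 2001 to 3257 the medians were 32.7% in replicate 4 only, 37.6% in shared and 42.6% in replicate 2 only peaks. Peaks beside a stronger summit of replicate 4 had a median of 39.6% (n = 397), and the 958 without one had 30.7%, against 34.7% in the 1755 shared peaks without one. The part of base composition in the ranks of either library was not tested.

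Averaged in steps of 20 bp, GC content was lowest at the replicate 4 only summits, with 33.0% just before the summit and 44.4% at 310 bp after it. The shared peaks had a similar dip at the replicate 4 summit, with 34.5% just before it and 43.9% at 310 bp after it. The replicate 2 only peaks had the reverse, with 43.7% just before the summit and 38.3% at 110 bp after it. Their summits thus stood on a GC-richer stretch between AT-richer ones.

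**Figure D4:**
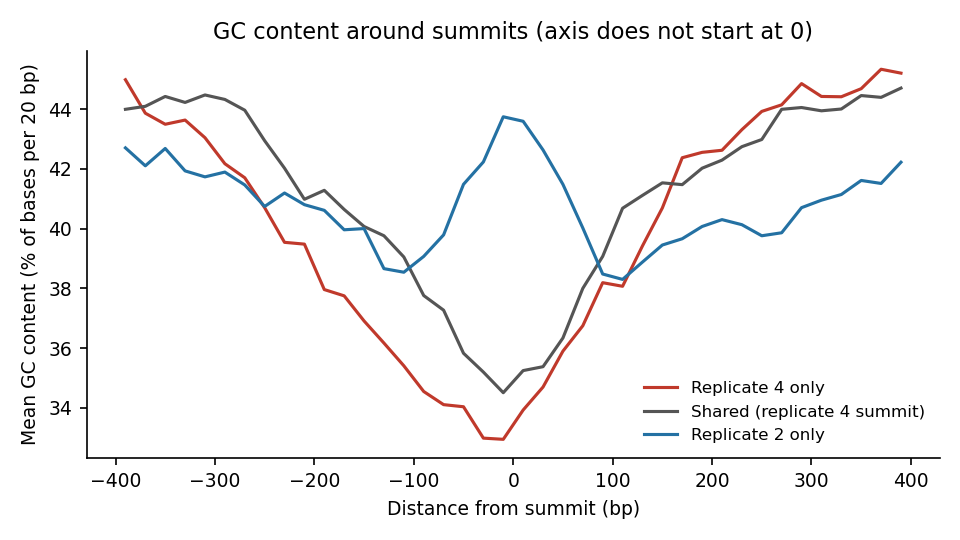
Mean GC content per 20 bp by distance from the summit along the plus strand, for replicate 4 only, shared (at the replicate 4 summit) and replicate 2 only peaks; the vertical axis does not start at 0. The replicate 4 only curve dips to 33.0% at the summit and the shared curve to 34.5%, and the replicate 2 only curve has a local high of 43.7% there.

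The DRE, Motif 1, the palindrome TAGCTA and the core AGAGATG were each in under 4% of the replicate 4 only windows, while AT-rich words such as TATAAA were more frequent. All motifs were searched on both strands in the 101 bases at the summit, and a match is a description of these letters. The windows printed next hold high-ranking matches of the 4 motifs described first below, with the match in capitals and 15 bases on either side, from the plus strand of the release 6 genome (RefSeq). They are chr3R:21134052-21134087 (Trm7-34) and chrX:9687496-9687531 (nej) for the palindrome TAGCTA, chr3R:20328448-20328485 (Sirt2) and chr2L:4838259-4838296 (CG12194) for the DRE TATCGATA, chr3L:6193489-6193526 (Tnpo) for Motif 1 GGTCACAC, and chr3L:6075651-6075687 (CG6610) and chr3R:30222382-30222418 (CecC) for AGAGATG, a core shared by the described sites of Sry-beta and Sry-delta. None of these 4 patterns contains another.
Trm7-34: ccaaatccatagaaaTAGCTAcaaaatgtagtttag
nej: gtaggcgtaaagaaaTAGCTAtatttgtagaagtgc
Sirt2: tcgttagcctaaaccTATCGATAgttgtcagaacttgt
CG12194: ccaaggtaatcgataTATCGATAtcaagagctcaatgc
Tnpo: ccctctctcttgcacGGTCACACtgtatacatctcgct
CG6610: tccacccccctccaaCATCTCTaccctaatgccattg
CecC: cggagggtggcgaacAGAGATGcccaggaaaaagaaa

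The palindrome TAGCTA, which an earlier look at these data picked out, was in 48 replicate 4 only windows (3.54%), in 9.31% of shared and in 3.76% of replicate 2 only windows. Windows centred 500 bp from the replicate 4 only summits held it in 0.923%, and windows centred on all protein-coding TSSs in 2.05%. The difference between replicate 4 only and shared peaks was −5.76 percentage points (Newcombe 95% interval −7.40 to −4.10) and came from the strongest ranks. At ranks 1 to 1000 the palindrome was in 2.60% of replicate 4 only and 16.0% of shared windows, at ranks 1001 to 2000 in 5.13% of replicate 4 only and 5.25% of shared windows, and below rank 2000 in 2.98% of replicate 4 only and 3.31% of shared windows. In the 593 neighbours it was in 15 windows at the replicate 4 summit (2.53%) and in 88 at the nearby replicate 2 summit (14.8%). Where a strong replicate 4 only peak had a strong replicate 2 neighbour, the palindrome was thus more often at the neighbour. Each of the 593 was paired with its nearest strong replicate 2 summit, so 1 replicate 2 window can be counted in more than 1 pair. Of all replicate 4 only peaks, 247 had another within 500 bp.

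The DRE was in 18 replicate 4 only windows (1.33%), 3.58% of shared and 5.17% of replicate 2 only windows, against 0.295% of windows 500 bp from the replicate 4 only summits and 4.48% of windows on all TSSs. All 18 were at promoters. Motif 1 was in 10 replicate 4 only windows (0.738%), 1.63% of shared and 4.87% of replicate 2 only windows, against 0.295% of the windows 500 bp away and 4.67% of TSS windows. These 10 were at promoters as well. The core AGAGATG was in 24 replicate 4 only windows (1.77%), 3.21% of shared and 3.54% of replicate 2 only windows, against 1.18% of the windows 500 bp away and 2.20% of TSS windows. The differences between replicate 4 only and shared peaks were −2.25 points for the DRE (interval −3.30 to −1.18), −0.892 for Motif 1 (−1.64 to −0.112) and −1.44 for the core (−2.50 to −0.333). The Motif 1 difference was −0.444 (−1.16 to 0.596) when summits within 500 bp counted as shared and −0.477 (−1.19 to 0.542) by interval overlap. The difference of the core was −0.762 (−1.83 to 0.648) against all replicate 2 rows and −0.692 (−1.46 to 0.115) in windows of 25 bp either side. Without the peaks beside a stronger summit, the palindrome was in 3.76% of 958 replicate 4 only and 9.17% of 1755 shared windows and the DRE in 1.36% of replicate 4 only and 3.42% of shared windows. Motif 1 was then in 0.626% of replicate 4 only and 1.65% of shared windows, and the core in 1.57% of replicate 4 only and 3.25% of shared windows.

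At the neighbours, the DRE was in 9 windows at the replicate 4 summit (1.52%) and 32 at the replicate 2 summit (5.40%). Motif 1 was in 3 windows at the replicate 4 summit and 16 at the replicate 2 summit, and the core in 14 at the replicate 4 summit (2.36%) and 33 at the replicate 2 summit (5.56%). No pair held the core at both summits, but the 2 windows of a pair share no base, so 1 site cannot count at both. The same was true of CAGCTG, with 29 matches at the replicate 4 summit and 39 at the replicate 2 summit. In all 4 motifs the replicate 2 summit had more matches than the replicate 4 summit of the pair. In 371 of the 593 pairs replicate 4 also had a strong summit at the replicate 2 one, so there the contrast is between an additional and a shared summit. In the 222 pairs with differently placed summits, the palindrome was in 6 windows at the replicate 4 summit and 22 at the replicate 2 summit, the DRE in 3 at the replicate 4 summit and 12 at the replicate 2 summit, Motif 1 in 1 at the replicate 4 summit and 6 at the replicate 2 summit, and the core in 2 at the replicate 4 summit and 12 at the replicate 2 summit. In the 371 with an additional summit the palindrome was in 9 windows at the replicate 4 summit and 66 at the replicate 2 summit.

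The AT-rich words had higher shares in replicate 4 only than in replicate 2 only windows. Runs of 8 A were in 8.04% of replicate 4 only, 7.15% of shared and 3.32% of replicate 2 only windows, and 5.13% of windows 500 bp from the replicate 4 only summits held one. The homeodomain core TAATTA was in 10.6% of replicate 4 only, 8.89% of shared and 3.76% of replicate 2 only windows, and in 4.69% of the windows 500 bp away. TATAAA was in 23.5% of replicate 4 only, 22.3% of shared and 10.4% of replicate 2 only windows, and in 10.04% of the windows 500 bp away. Without the peaks beside a stronger summit, TATAAA was in 26.1% of replicate 4 only and 22.6% of shared windows (difference 3.53 points, interval 0.178 to 6.97), and the difference of TAATTA was 3.13 points (0.756 to 5.65). These letters contain no G or C, and the match of their shares to base composition was not tested. The repeat GAGAGAG, a site of GAF, was in 1.70% of replicate 4 only, 1.05% of shared and 3.54% of replicate 2 only windows, and in 2.92% of windows 500 bp from the replicate 4 only summits. Its difference from these windows was −1.22 points (interval −2.12 to −0.205), and −0.148 (−0.956 to 0.799) from windows 1000 bp away. CAGCTG, an E-box of core promoters, was in 3.69% of replicate 4 only, 5.26% of shared and 8.34% of replicate 2 only windows. The pattern GCGCCNCCT of the insulator protein CTCF was in no replicate 4 only window, in 7 shared windows (0.368%) and in 21 replicate 2 only windows (1.55%). The other 9 motifs searched (the repeat CACACACA, the E-box CACGTG, the site CAGGTAG of the pioneer factor Zelda, TGCATAC of Su(Hw), TAATCC of Bicoid, AGATAAG of GATA factors, TGANTCA of bZIP factors, ACCGGTT of Grainyhead and TTCNNNGAA of Stat92E) were in 0.295% to 2.88% of replicate 4 only windows. Of these 9, the bZIP pattern TGANTCA alone had an interval of the difference from the shared peaks without 0, at −1.09 points (−2.10 to −0.0296), and it changed sign under other settings.

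**Figure D5:**
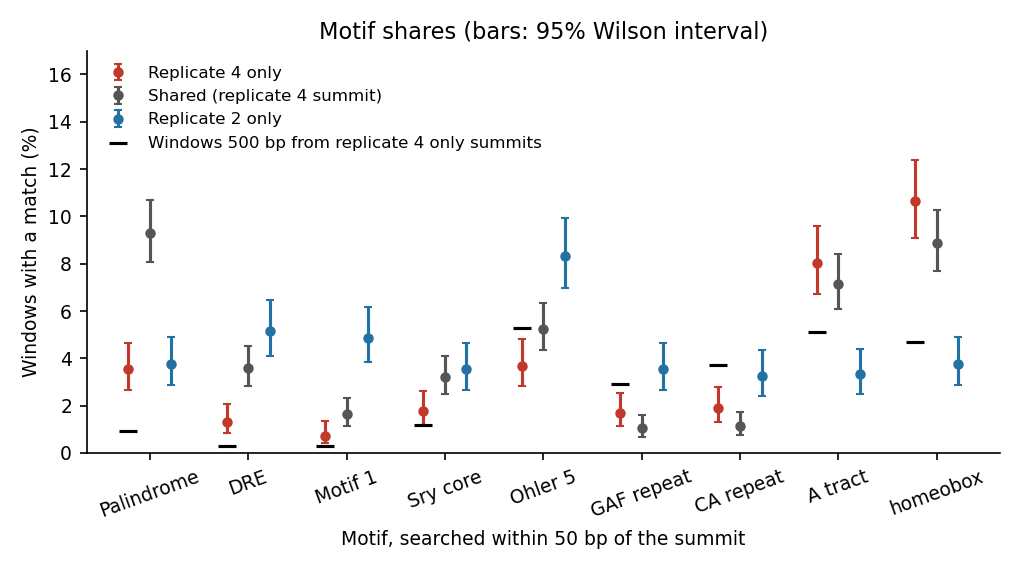
Percentage of 101-base summit windows with a match to each of 9 motifs in replicate 4 only, shared and replicate 2 only peaks, with 95% Wilson intervals; black dashes give windows 500 bp from the replicate 4 only summits. The palindrome is at 3.54% in replicate 4 only and 9.31% in shared peaks, and the DRE and Motif 1 are lowest in replicate 4 only peaks.

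Words of 8 bases gave the same picture of AT-rich summits. Of the 563 words found in at least 10 replicate 4 only windows on 2L, 3L and 4, the 15 most frequent relative to windows 500 bp away were listed, and on 3R and X all 15 were again more frequent at the summits than 500 bp away. On those arms ATTATTTA was in 4.83% of 601 replicate 4 only windows, 3.41% of shared and 1.86% of replicate 2 only windows, and in 1.33% of windows 500 bp away. ATTTATTA was in 3.99% of replicate 4 only, 3.41% of shared and 0.557% of replicate 2 only windows. AAAAGCTA headed the list but was in 0.666% of replicate 4 only windows on 3R and X, against 2.40% of shared windows and 0.582% of windows 500 bp away. The DRE TATCGATA, also among the 15, was in 0.832% of replicate 4 only and 3.78% of shared windows there. TATTAACA, ATTTTAAG, AGATTTTA, GTTTATAA and AAGAATAA were likewise more frequent in shared than in replicate 4 only windows on these arms.

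Of 13968 protein-coding genes, 1096 (7.85%) had a replicate 4 only summit within 500 bp of a TSS, 1706 (12.2%) a shared one and 1033 (7.40%) a replicate 2 only one. Of the 1096 genes, 378 (34.5%) also had a shared summit, beside 12.2% of all genes, and 191 also had a replicate 2 only one. Genes with a replicate 4 only summit thus had a shared one more often than genes in general. The other 569 (51.9%) had neither a shared nor a replicate 2 only one. The share of all genes with neither was not computed, so this count does not set these genes apart. Cytoplasmic ribosomal protein genes had a replicate 4 only summit in 13 of 92 genes, a shared one in 45 and a replicate 2 only one in 24. Among the 13 were RpS28b (rank 267), RpL4 (rank 311), RpL35 (rank 552) and RpL32 (rank 660), each with a strong replicate 2 summit within 500 bp. Mitochondrial ribosomal protein genes had a replicate 4 only summit in 9 of 73 genes, a shared one in 22 and a replicate 2 only one in 10. The highest of the 9 were mRpS22 (rank 796), mRpS29 (rank 922) and mRpL44 (rank 960). The share of genes with a replicate 4 only summit was thus 14.1% in the cytoplasmic and 12.3% in the mitochondrial list, beside 7.85% of all genes. The share with a shared summit was 48.9% in the cytoplasmic and 30.1% in the mitochondrial list, beside 12.2% of all genes.

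Genes that lay out the embryo had few replicate 4 only summits at their promoters, in lists too short to set them apart from the 7.85% of all genes with such a summit. The count was 0 of 8 gap genes, 0 of 9 pair-rule genes, 0 of 8 Hox genes, 0 of 12 dorsoventral genes and 0 of 13 neural genes. Of 13 segment polarity genes only smo, the Hedgehog signal transducer, had one (rank 2263). Shared peaks were at 1 segment polarity and 1 neural gene, beside 12.2% of all genes. Replicate 4 only summits farther away did have patterning genes as their nearest. Outside the neural list these were brk, sna, Abd-B, fz, hh, Antp, wg, slp1, ftz and Dfd, at replicate 4 ranks 792 to 3255. Examples are 2 summits near sna (ranks 1115 and 1398), 1 in an intron of Abd-B (rank 1461), 1 upstream of fz (rank 1593) and 1 near hh (rank 1637). The sna summit of rank 1398 had a stronger replicate 4 summit within 250 bp. Both sna summits had the same nearest replicate 2 summit, of rank 7171. The patterning genes were named after their values were seen. All these summits had a weaker replicate 2 summit within 500 bp, of replicate 2 ranks 4047 to 28771. In the neural list, esg was the nearest gene of a replicate 4 only summit. At any distance, replicate 4 only summits were nearest to 2 pair-rule, 3 Hox, 3 segment polarity and 2 dorsoventral genes. Shared summits were nearest to 2, 1, 5 and 2 in the same order, and replicate 2 only summits to 0, 4, 1 and 1. Of all 13968 genes, 1139 were nearest to a replicate 4 only and 1656 to a shared summit.

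Insulator and architectural protein genes had a replicate 4 only summit in 5 of 14 genes, a shared one in 5 and a replicate 2 only one in 4. The highest were at M1BP, whose product binds Motif 1 (rank 1249), BEAF-32 (rank 1271), Cp190 (rank 1349) and Ibf2 (rank 2303). In the serendipity cluster, 1 of 5 genes, Sry-delta, had one (rank 2383), and 4 had a shared summit. The Notch list held neur and mam, 2 of 15 genes. Mesoderm and muscle genes with a replicate 4 only summit were how, tin and Tm1, 3 of 12, at ranks 2249 to 2425. The ecdysone list had usp and Eip75B, 2 of 11, the tracheal list trh, 1 of 8, the actin and tubulin list gammaTub23C and Act5C, 2 of 9, and the heat shock list none of 12. The insulator count is 35.7% of that list, beside 7.85% of all genes. These lists are short and their counts were not tested.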

How the data were processed

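The authors deposited 4 narrowPeak lists on dm6. The readme files say that the relaxed list of a replicate came from its own alignment with a control alignment common to both, and that the relaxed lists led to the IDR list. Which aligner, caller and IDR limit the authors chose is not given in the sources used. Each relaxed list of a replicate held 30000 rows, which the authors name as peaks and background. The signal value of a peak is a score that the authors deposited, with no stated scale, and was used only to rank peaks within a list. The summit offset, another deposited value, gave the summit position. One member had its summit past the end of its interval, and it was kept as deposited.

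All further values were computed with pandas 2.3.3 and numpy 2.4.6 under Python 3.11.15, and drawn with matplotlib 3.10.9. Ensembl release 115 gave the TSSs of protein-coding genes, and RefSeq's release 6 genome the bases. Shares have Wilson and differences Newcombe 95% intervals; no test of significance was made. Where 2 or more genes tied as the nearest, 1 was named, in 32 of the 1355 members. Summit matching, motif search and intervals were tested on simulated data. One sequence window with a motif match is not reported here.

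The members, motifs and gene lists were chosen with earlier results of these data known. Genes were named by a rule: the 20 highest members, the 5 highest outside promoters, the 5 highest without a replicate 2 summit within 100 bp, up to 4 per list and those next to the limits. The 12 highest without a strong neighbour, the 14 without any and the patterning genes were added after their values were seen. The split by the nearest replicate 2 summit, the rank ranges, the side of close summits, the motif counts by kind of neighbour and the set without a stronger close summit were also chosen after seeing the data. Alternatives covered the sharing distance, the list length, the replicate 2 rows searched, interval overlap, the promoter, GC and motif windows and the comparison windows.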

Additional observations from a re-analysis of the deposited data

How the results depend on the processing

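The number of replicate 4 only peaks was 762 when summits within 500 bp counted as shared, 611 with lists of 1628 rows, 3075 with lists of 6514 rows, 742 against all replicate 2 rows and 781 when sharing meant overlap of intervals, beside 1355. In the same order the promoter share was 53.9%, 63.7%, 48.8%, 61.0% and 53.5%, and it was 38.1% with a promoter window of 200 bp and 66.4% with 1000 bp. The difference in promoter share from the shared peaks was −10.1 points with 500 bp, −0.818 against all replicate 2 rows (interval −4.84 to 3.12), −10.7 by overlap and −14.2 with the 200 bp promoter window, beside −6.17. Without summits beside a stronger one the promoter share was 54.3%, that difference −10.1 points and the median GC content 30.7%. The share of promoter summits at head-to-head promoters was 39.9% with 500 bp and 61.3% with 2000 bp between TSSs. The median GC content was 31.4% with 25 bp, 33.8% with 100 bp and 37.3% with 250 bp either side. The share with an IDR peak was 81.4% by overlap.

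The difference of the bZIP pattern TGANTCA from the shared peaks changed sign to 0.0376 points with 500 bp, 0.128 with lists of 1628 rows and 0.149 with 100 bp motif windows; the cause was not tested. No other motif difference whose interval lay away from 0 changed sign. Of the other single-motif values, 321 stayed within their interval and 75 moved. Leaving out a replicate was not possible, because the rule needs both lists. Depth is unknown, and no interval covers variation between embryos or libraries.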
